A study of Mus musculus with 6 samples.

Results

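Integrins are the cell surface receptors through which cells hold on to the extracellular matrix and to each other, and laminins are the cross-shaped matrix proteins that many of them bind in basement membranes. An integrin is a pair of 1 alpha and 1 beta chain, and a laminin is a trimer of 1 alpha, 1 beta and 1 gamma chain, so each gene below encodes a single chain of a receptor or of a matrix trimer. In the anterior pituitary, basement membranes surround the capillaries and the lobules of hormone cells, and integrins of epithelial cells, of stromal cells and of resident leukocytes meet in the same tissue. The genes were taken by symbol, as every integrin alpha or beta chain and every laminin alpha, beta or gamma chain that the array design names. This gave 38 genes (27 integrins and 11 laminins) with 54 probes, of 30154 genes or unnamed transcripts with 39429 probes on the array.

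RNA came from the anterior pituitary of female mice, as the Hoechst dye side population without the cells of highest Sca1, called SC-SP in the labels, sorted by flow cytometry at 25000 to 50000 cells per sort. Control mice carried an inducible diphtheria toxin receptor without Cre (-/iDTR), and the other mice carried it together with a Cre under growth hormone control (GHCre/iDTR, below GHCre), so that toxin removes growth hormone cells only in the latter. Both genotypes were given the toxin (4 ng per g of body weight, 2 doses daily) over 3 or 10 days, so no group is free of toxin. There were 2 control and 2 GHCre arrays after 3 days, and 1 control and 1 GHCre array after 10 days. The neurointermediate lobe had been removed, and 1 ng of RNA per sort was amplified before hybridisation. For some samples the free-text description contradicts the title. Groups follow the titles, with which the genotype and treatment fields agree in every sample.

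Levels are given as log2 signal minus the log2 of the same array's 75th percentile, so a level of 0 is that percentile and a difference of 1 is a factor of 2. A level belongs to 1 probe and is compared only between arrays, since probes differ in brightness for reasons other than RNA amount. A probe is called above background where the scanner software marked it as well above background. The array of control replicate 1 after 3 days was the dimmest, with 53.8% of probes above background against 61.4% to 65.7% on the others, and with 35 of the 54 probes of integrins and laminins above background against 38 to 45. The arrays of replicate 1 after 3 days shared a slide (slide 1), the control array of 10 days was alone on slide 2, and the remaining 3 arrays were on slide 3. After 10 days slide and genotype therefore cannot be told apart, and in the controls neither can slide and time. The labels give the samples as independent without naming animals, and p-values measure only the spread between these samples. In a sorted bulk population, fewer cells of a type and less RNA per cell cannot be told apart.

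The array reports on each gene through probes of 60 bases, and those of 2 receptor chains and 2 laminin chains are shown here. Both probes of Itga1 and of Itgb1 are given because the probes of a gene are compared below, and the single probes of Lama4 and Lamb2 as examples of the laminin measurements. Coordinates are on mm9, as the scanner files give them. Itga1, the alpha chain of a collagen and laminin receptor, has a probe at chr13:115756765-115758419 and another at chr13:115821387-115825525, both on the minus strand and both across an intron, 3710 and 683 bases into the transcript. Itgb1, the beta chain shared by most matrix receptors, has probes at chr8:131246349-131246408 and, across an intron, at chr8:131250081-131255976 on the plus strand. Lama4, the alpha chain of endothelial and stromal laminins, has a probe at chr10:38825794-38825853 (plus strand), and Lamb2, a beta chain of mature basement membranes, one at chr9:108392189-108392248 (plus strand).
Itga1, brighter probe: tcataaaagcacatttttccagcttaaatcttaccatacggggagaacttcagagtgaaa
Itga1, other probe: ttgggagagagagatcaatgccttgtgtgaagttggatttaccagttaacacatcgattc
Itgb1, brighter probe: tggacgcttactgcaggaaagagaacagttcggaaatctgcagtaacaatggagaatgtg
Itgb1, other probe: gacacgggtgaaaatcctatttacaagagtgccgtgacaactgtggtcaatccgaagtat
Lama4: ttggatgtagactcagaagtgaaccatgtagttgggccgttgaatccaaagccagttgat
Lamb2: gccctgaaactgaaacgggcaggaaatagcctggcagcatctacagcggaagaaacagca

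Where a gene had several probes, the one with the highest mean over the arrays stood for it, and the gene was tested if that probe was marked as above background on 2 or more of the 6 arrays. All 11 laminins and 22 of the 27 integrins passed, and 24 of these 33 were above background on every array. A member that passed only through the group in which it was bright had to differ between groups, so the counts below describe the 33 tested genes and not all 38. The 5 genes not tested were Itga2 and Itgae, above background on no array, and Itga7, Itgad and Itgb6, above background on at most 1. Itga2 is the alpha chain of an epithelial and platelet collagen receptor, Itgae marks intraepithelial lymphocytes, Itga7 is a laminin receptor chain of muscle, Itgad is a myeloid chain and Itgb6 an epithelial one. Replicate 1 of the 3 day GHCre group was the array on which Itga7 (-2.07) and Itgad (-3.94) were above background.

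No integrin or laminin passed an adjusted p of 0.05 in any comparison with limma, and neither did any of the 20935 genes tested, so values and not calls are given for every gene below. At an unadjusted p under 0.05, 5 of the 33 members differed between GHCre and control after 3 days, against 6.57% of all genes tested (1375 genes). They were Itga1, Itga5, Itga9, Itgb4 and Lamc3. Itga9 and Itgb4 were not above background in either 3 day control, and the other Itga1 probe had the opposite sign. The corresponding counts were 3 after 10 days, against 3.01% of all genes, and 7 for the difference between the 10 day and 3 day effects, against 3.94%. Itga10 and Itgb4, among those counted after 10 days, were not above background in the 10 day GHCre array. The 7 were Itga1, Itga8, Itga9, Itga10, Itgb4, Itgb7 and Lama1. Of these, Itga1, Itga9, Itga10 and Itgb4 had at least 1 group without an array above background, which for Itga1 was the 10 day control. The lowest adjusted p of any gene after 3 days was 0.654, and Itga9 was at that value.

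**Figure D1:**
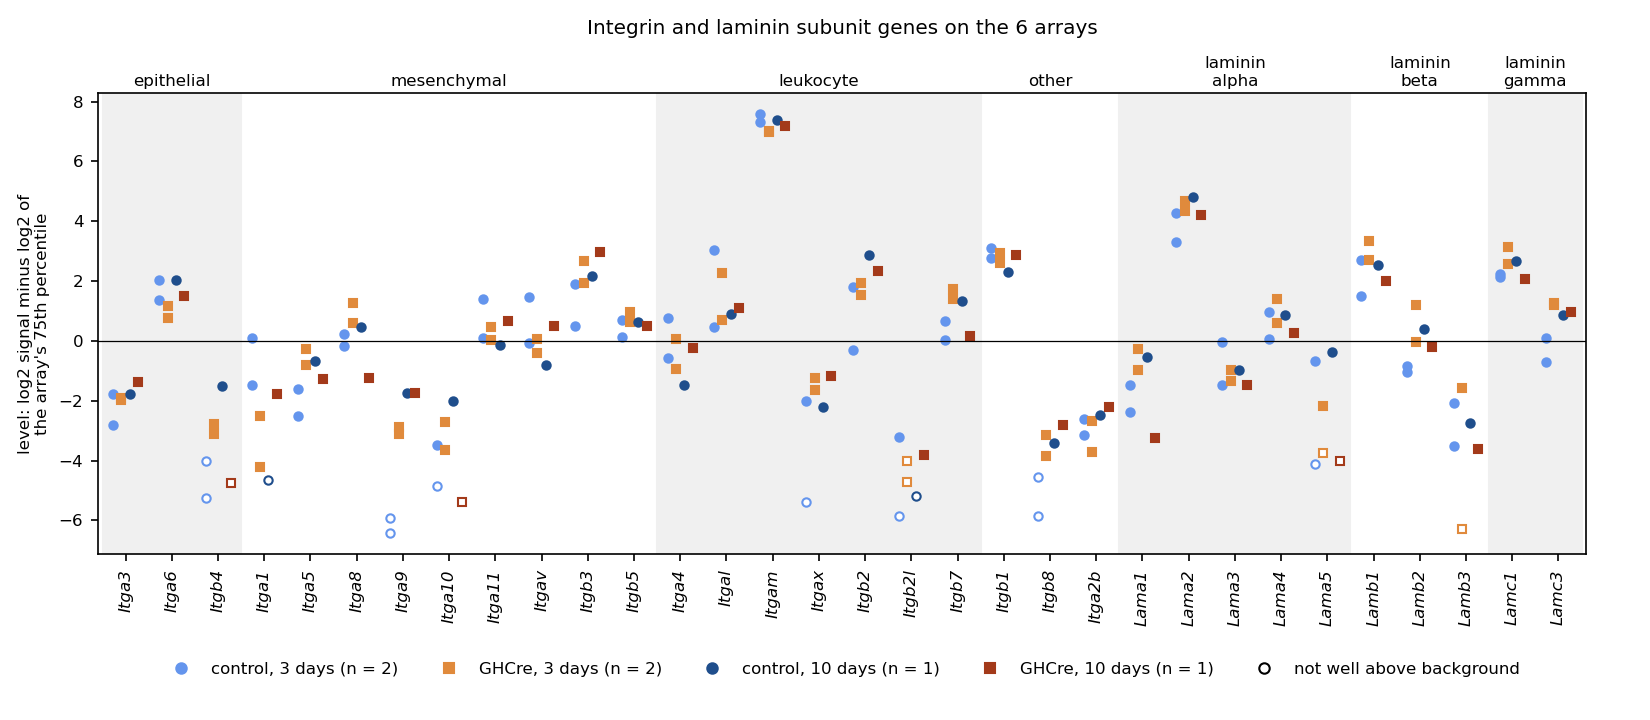
Level of the tested integrin and laminin genes whose values are reported, on each of the 6 arrays (y axis, log2 signal minus log2 of the array's 75th percentile), with genes grouped by class. Circles are control and squares GHCre, light for 3 days and dark for 10 days, and open symbols are not well above background. The open circles of Itga9 and Itgb8 are both 3 day controls, and Itgam lies between 7.00 and 7.59 on all 6 arrays.

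The laminin chains, as a group, had genotype differences of opposite sign at the 2 times. After 3 days 7 of the 11 had a higher mean in GHCre, against 48.0% of all genes tested, with a median difference of 0.68 against -0.04 for all genes. In 6 of the 11 both GHCre arrays lay above both control arrays, where 16.6% of all genes did so, and in none did both lie below, where 21.3% did. After 10 days 9 of the 11 were lower in the GHCre array, against 50.1% of all genes, with a median of -0.59 against -0.00. The difference between these effects was negative for 9 of 11 (48.6% of all genes), with a median of -1.31. It was -1.80 without control replicate 1 of 3 days and -0.86 without control replicate 2.

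Within slides, the 3 day laminin median was 0.52 on slide 1 and 0.54 on slide 3, with 9 of 11 chains higher on each. Of all genes tested, 47.6% were higher on slide 1 and 47.4% on slide 3. It was 0.32 without control replicate 2 and 0.43 without GHCre replicate 1, with 8 of 11 higher in both cases. By time within a genotype, 10 of the 11 chains were higher after 10 than after 3 days in the controls (median 1.01, 55.1% of all genes higher), and 9 of 11 were lower in GHCre (median -0.73, 42.7% of all genes lower). The 10 day control array was alone on its slide, so in the controls time and slide cannot be told apart. Without control replicate 2 the first median was 0.52 with 8 of 11 higher. Within slide 3, which holds a GHCre array of each time, the second was -0.30.

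Among the alpha chains, Lama2, the chain of stromal and muscle laminin, had levels of 4.28 and 3.30 in the 3 day controls, 4.67 and 4.36 in GHCre, and 4.81 and 4.22 in the control and GHCre arrays of 10 days. The GHCre arrays of 3 days were above the controls, by 0.72 ± 0.53 (SE of the fit, here and below, adjusted p = 0.868 with limma), and the GHCre array of 10 days was below its control. A second Lama2 probe had the same order of group means, with differences of 0.46 after 3 days and -0.70 after 10 days. Its 3 day groups overlapped, with 3.86 and 2.64 in the controls and 3.96 and 3.46 in GHCre. Lama1, the chain of early embryonic and epithelial basement membranes, stood at -2.38 and -1.47 in the 3 day controls, -0.28 and -0.96 in GHCre, and -0.53 and -3.24 after 10 days. The 3 day groups did not overlap, with a difference of 1.30 ± 0.56 (adjusted p = 0.801). The 10 day difference of -2.71 ± 0.79 and the difference between the effects of -4.01 ± 0.97 both had an adjusted p of 1.00 with limma. Within GHCre mice the 10 day level relative to 3 days was -2.62 ± 0.69, and -2.28 within slide 3.

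Lama4 stood at 0.96 and 0.06 in the 3 day controls, 1.41 and 0.60 in GHCre, 0.87 in the 10 day control and 0.28 in the 10 day GHCre array. Its 3 day groups overlap, and both differences, 0.50 ± 0.58 and -0.59 ± 0.82, are within about 1 standard error. Lama5, the widespread alpha chain of epithelial and endothelial basement membranes, was not above background on 3 arrays. It stood at -0.68 and -4.10 in the 3 day controls and at -2.18 and -3.74 in GHCre, so its replicates differed by more than its genotypes (-0.57 ± 1.38). In the 10 day control it was at -0.36, and in the 10 day GHCre array it was at -4.01, not well above background. The measured level was 12.6-fold lower, which is not a bound, and the difference ran from -3.95 to -1.69 over the alternative settings. The spread between the 3 day controls was nearly as large as the measured difference. Lama3, the alpha chain of epithelial anchoring laminin, overlapped after 3 days with levels of -1.47 and -0.03 in controls and -0.96 and -1.34 in GHCre, and stood at -0.96 and -1.47 after 10 days.

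Of the beta chains, Lamb1, which pairs with most alpha chains, had levels of 2.69 and 1.50 in the 3 day controls, 3.35 and 2.72 in GHCre, and 2.53 and 2.01 after 10 days in control and GHCre. Lamb2 had levels of -1.04 and -0.83 in the 3 day controls, -0.02 and 1.20 in GHCre, and 0.39 and -0.20 after 10 days. In both genes the GHCre arrays of 3 days lay above the controls, by 0.94 ± 0.62 for Lamb1 and 1.53 ± 0.59 for Lamb2, and in both the GHCre array of 10 days lay below its control. Lamb3, a partner of Lama3 in epithelial laminin, was at -2.08 and -3.50 in the 3 day controls and at -1.56 and -6.30 in GHCre, the last not above background, so the replicates spread by more than any group difference.

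Of the gamma chains, Lamc1, part of most laminins, stood at 2.12 and 2.23 in the 3 day controls, 3.14 and 2.57 in GHCre, 2.67 in the 10 day control and 2.07 in the 10 day GHCre array. Its control replicates of 3 days differed by 0.11, the GHCre arrays were above both, and the difference was 0.68 ± 0.44 (adjusted p = 0.862 with limma). Lamc3 stood at 0.11 and -0.71 in the 3 day controls, 1.20 and 1.26 in GHCre, 0.87 in the 10 day control and 0.97 in the 10 day GHCre array. It had the lowest unadjusted p of the laminins after 3 days, with a difference of 1.53 ± 0.49 (adjusted p = 0.745), 1.09 within slide 1 and 1.98 within slide 3, and no difference of that size after 10 days (0.10 ± 0.69). Lama3, Lama4, Lama5 and Lamb3 had overlapping 3 day groups, whereas those of Lamc1 and Lamc3 did not overlap.

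**Figure D2:**
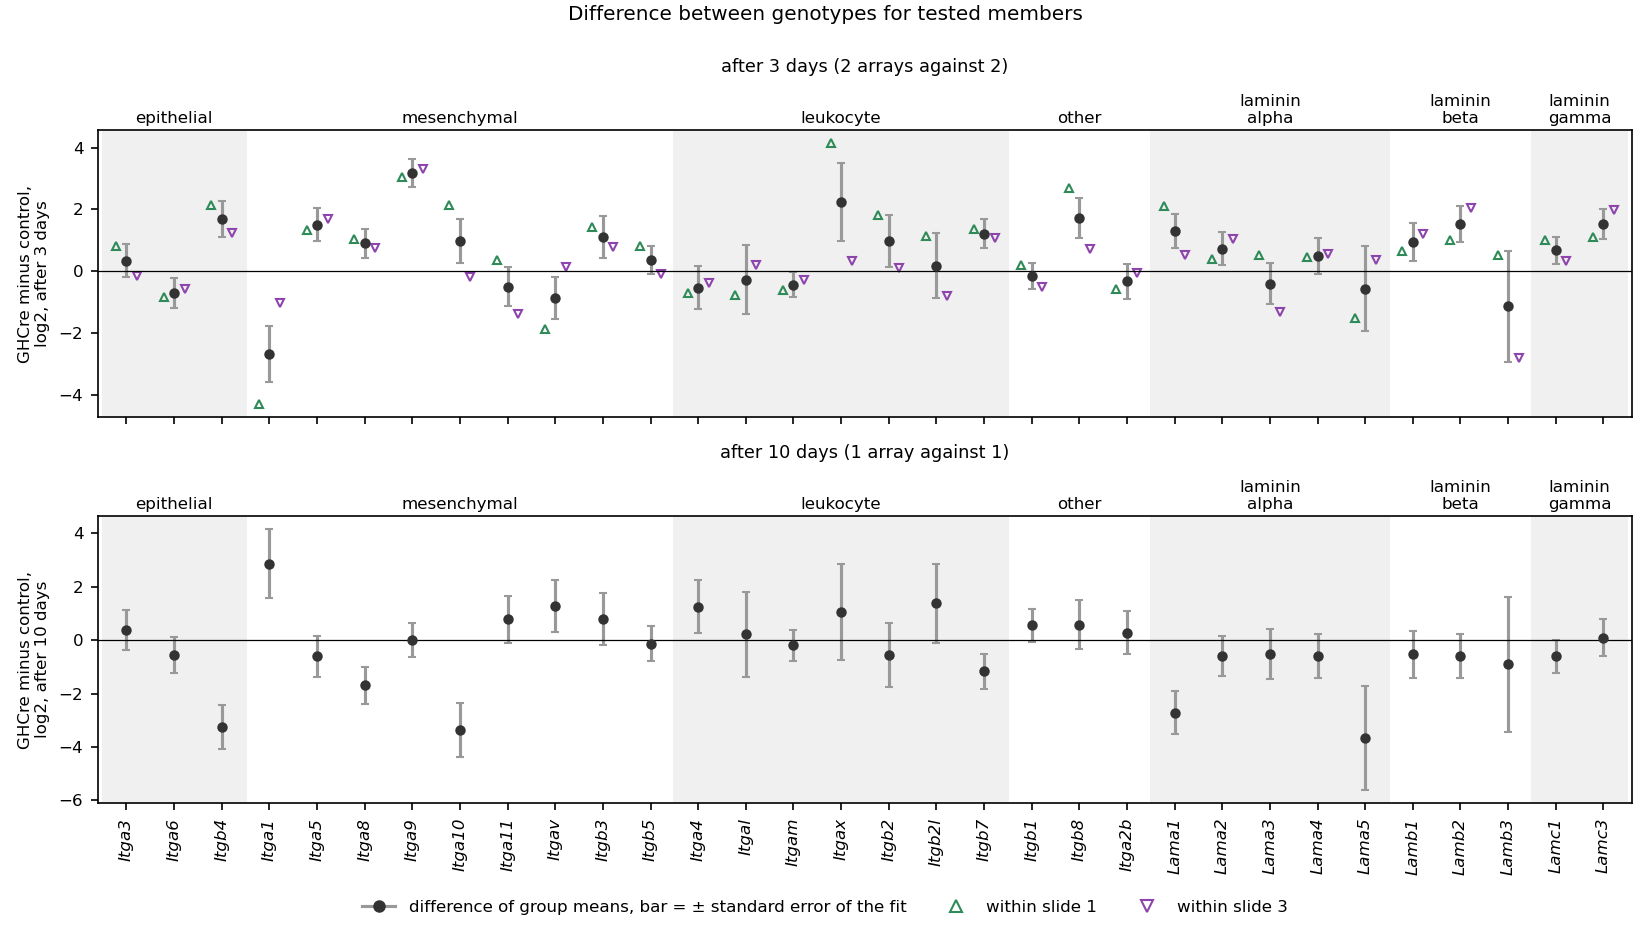
GHCre minus control for the same genes (y axis, log2 difference), after 3 days above and after 10 days below, with genes grouped by class. Points are differences of group means, bars ± the standard error of the fit, and triangles the 3 day difference within slide 1 and within slide 3. After 3 days 7 laminins lie above 0, after 10 days 9 lie below it, and Itga1 lies below 0 after 3 days and above it after 10 days.

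Other cell types could contribute laminin RNA to the sort, and their markers were measured on the same arrays. Fibroblast and mural markers, 12 of 12 tested, summed to between 149 and 210 times the 75th percentile in the 3 day controls and to between 240 and 292 in GHCre, with 11 of 12 higher in GHCre and a median difference of 0.78. After 10 days the sums were 185 in the control and 180 in GHCre, with 4 of 12 higher (median -0.36). Pdgfrb, a mural cell receptor, was at 4.33 to 5.15 on the 3 day arrays, with a difference of 0.42 ± 0.45. Of the endothelial markers 8 of 11 were tested and 7 of these were higher in GHCre after 3 days (median 0.90) and 3 after 10 days (median -0.16), with Tie1 above background on no array and Pecam1 at -2.82 to -1.67 on all 6. The medians of both marker lists thus had the same signs as that of the laminins at both times. This was not particular to them, as stem cell markers (1.08 and -0.38) and epithelial markers (0.30 and -0.44) had these signs too. Leukocyte markers (0.69 and 0.48) and hormone cell markers (-0.56 and -3.28) did not. The part of fibroblast, mural and endothelial cells in the laminin differences was not tested.

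Markers of the labelled stem cells and of hormone cells were also measured. Of 9 pituitary stem cell markers 4 were tested, Sox9, Gfra2, S100b and Cyp2f2, each above background on all 6 arrays, while Sox2, Hesx1 and Pax6 were above background on none. In GHCre 3 of the 4 were higher after 3 days (median 1.08, 0.44 within slide 1 and 0.32 within slide 3) and 2 after 10 days (median -0.38). Their summed level was between 11.7 and 20.4 in the 3 day controls, between 12.8 and 21.9 in GHCre, 19.2 in the 10 day control and 13.7 in the 10 day GHCre array.

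Of the 10 hormone cell markers 9 were tested, with 2 higher in GHCre after 3 days (median -0.56) and 3 after 10 days (median -3.28), and a median of 2.23 for 10 against 3 days in the controls. Prl, which encodes prolactin, ranged from 10.35 to 11.08 on the 6 arrays. Gh, the transcript of the targeted cells, was at 5.69 and 3.65 in the 3 day controls, 5.46 and 2.20 in GHCre, 7.86 in the 10 day control and 2.21 in the 10 day GHCre array. After 10 days Cga, the common glycoprotein hormone subunit, was at 3.88 in the control and -3.35 in GHCre, and Pomc, Lhb and Tshb, which encode other pituitary hormone chains, differed by -3.86, -3.70 and -3.28, none with an adjusted p under 0.05 with limma. The replicates of 3 days also spread widely, with Cga at 1.34 and -3.47 in the controls. Gh, Cga, Pomc, Lhb and Tshb each had their highest level of the 6 arrays on the 10 day control array. The other tested markers did not follow them, with 10 day differences of 1.75 for Pou1f1, 0.70 for Chga, 0.32 for Prl and -0.06 for Scg2. The summed level of the list was between 2215 and 2319 in the 3 day controls and between 1364 and 1639 in GHCre. After 10 days it was 1802 in the control and 1883 in GHCre. Prl had the highest level of the list on every array and made up most of each sum, so the sums say little about the other hormone genes. The part of stem and hormone cells in the laminin differences was not tested.

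Mesenchymal integrins, chains of receptors for fibronectin, collagen and other stromal matrix, differed from each other more than they moved together. After 3 days 6 of the 9 tested had a higher mean in GHCre, with a median difference of 0.90, and in 4 both GHCre arrays were above both controls (16.6% of all genes) while in 1 both were below (21.3%). The median was 1.04 within slide 1 but 0.15 within slide 3, and 0.29 without control replicate 1. It was 0.25 with another background correction (normexp with an offset of 50), and 0.51 without GHCre replicate 1. After 10 days 5 of 9 were higher (49.9% of all genes), with a median of 0.00.

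Itga9, a chain of a receptor for tenascin and osteopontin, had the lowest unadjusted p of all members after 3 days. It was at -5.91 and -6.44 in the 3 day controls, neither above background, at -2.88 and -3.12 in GHCre, and at -1.73 in both arrays of 10 days. The GHCre level of 3 days was at least 1.87-fold higher than the controls, where each control array was set to its dimmest probe signal that still passed background. The fitted difference was 3.18 ± 0.44 (adjusted p = 0.654 with limma), 3.03 within slide 1 and 3.32 within slide 3, and from 0.44 (normexp background correction) to 3.58 over the alternative settings. In the controls it was at least 4.49-fold higher after 10 than after 3 days with the main processing, so the 3 day control arrays were the low ones. Over the alternative settings that difference was 1.11 at its smallest. The probe lies at chr9:118807900-118807959.

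Itga5, the alpha chain of the main fibronectin receptor, stood at -1.60 and -2.50 in the 3 day controls, -0.27 and -0.82 in GHCre, and -0.67 and -1.27 after 10 days in control and GHCre. The 3 day groups did not overlap, with a difference of 1.51 ± 0.54 (adjusted p = 0.759), 1.34 within slide 1 and 1.68 within slide 3, while the 10 day difference was -0.60 ± 0.76. Itga8, a chain of a stromal receptor for nephronectin, was at 0.24 and -0.16 in the 3 day controls, 1.28 and 0.59 in GHCre, 0.45 in the 10 day control and -1.24 in the 10 day GHCre array. That last array held its lowest level, -2.17 ± 0.59 relative to the 3 day GHCre mean and -1.82 relative to the GHCre array on the same slide, with an adjusted p of 1.00.

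Itgav, the chain shared by receptors for vitronectin and latent TGF-beta, had overlapping 3 day levels of 1.47 and -0.08 in controls and -0.42 and 0.07 in GHCre, and stood at -0.79 and 0.49 after 10 days. Itgb3, one of its partners, was at 0.50 and 1.92 in the 3 day controls, 1.94 and 2.69 in GHCre, and 2.18 and 2.98 after 10 days, with differences of 1.11 ± 0.69 and 0.80 ± 0.97. Itgb5, another partner, lay between 0.14 and 0.96 on all 6 arrays, with differences of 0.37 ± 0.46 and -0.13 ± 0.64. Itga11, a fibrillar collagen receptor chain of fibroblasts, overlapped after 3 days (0.10 and 1.40 against 0.46 and 0.03) and was at -0.12 and 0.66 after 10 days. None of the 4 differed between genotypes by more than 2 standard errors at either time.

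Itga10, a collagen receptor chain of cartilage, was above background on 1 of 2 control arrays and both GHCre arrays of 3 days, with levels of -4.87 and -3.49 against -2.72 and -3.66. In the 10 day control its level was -2.02, and it was not well above background in the 10 day GHCre array. There it was at least 4.75-fold lower with the main processing, and the difference was -1.07 at its smallest over the alternative settings. A second probe had the same signs, 1.74 after 3 days and -4.51 after 10 days. It lies at chr3:96468377-96468436 and overlaps the first at chr3:96468383-96468442, so it adds no independent measurement. It too was not above background in the 10 day GHCre array.

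The probes of 1 gene did not always agree, and Itga1 was the clearest case. Its brighter probe was at 0.08 and -1.47 in the 3 day controls, -4.23 and -2.50 in GHCre, below background at -4.66 in the 10 day control and at -1.79 in the 10 day GHCre array. That gave a difference of -2.67 ± 0.91 after 3 days (adjusted p = 0.756) and of at least 4.45-fold in the other direction after 10 days. Over the alternative settings the 10 day difference was 0.87 at its smallest. Its other probe, which lies further 5′ in the transcript, was below background at -5.57 and -6.26 in the 3 day controls and at -2.18 and -2.87 in GHCre, at least 2.59-fold higher (fitted difference 3.39). The same probe was below background on both 10 day arrays, at -5.88 in the control and -4.17 in GHCre. This probe holds a run of 10 bases of alternating G and A, and runs of that length or longer of any pair of bases occur in 0.857% of all probes. The direction of Itga1 after 3 days therefore depends on the probe, and the mean of both, which includes the values below background, gave 0.36.

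Of the 9 members with at least 2 probes above background on 2 or more arrays, 5 had the same sign on all such probes after 3 days and 6 did after 10 days. Both counts include Itga10, whose probes overlap. The 10 day count also includes Itga1, whose other probe was below background on both 10 day arrays. After 3 days the sign differed between probes for Itga1, Itga6, Itgb1 and Itgb3, and after 10 days for Itgav (1.28 and -1.50), Itgb3 (0.80 and -0.79) and Itgam, whose differences were all within 0.19 of 0. Itgb1, whose probes are shown above, had small differences on both, -0.15 and 0.075 after 3 days and 0.56 and 0.09 after 10 days.

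**Figure D3:**
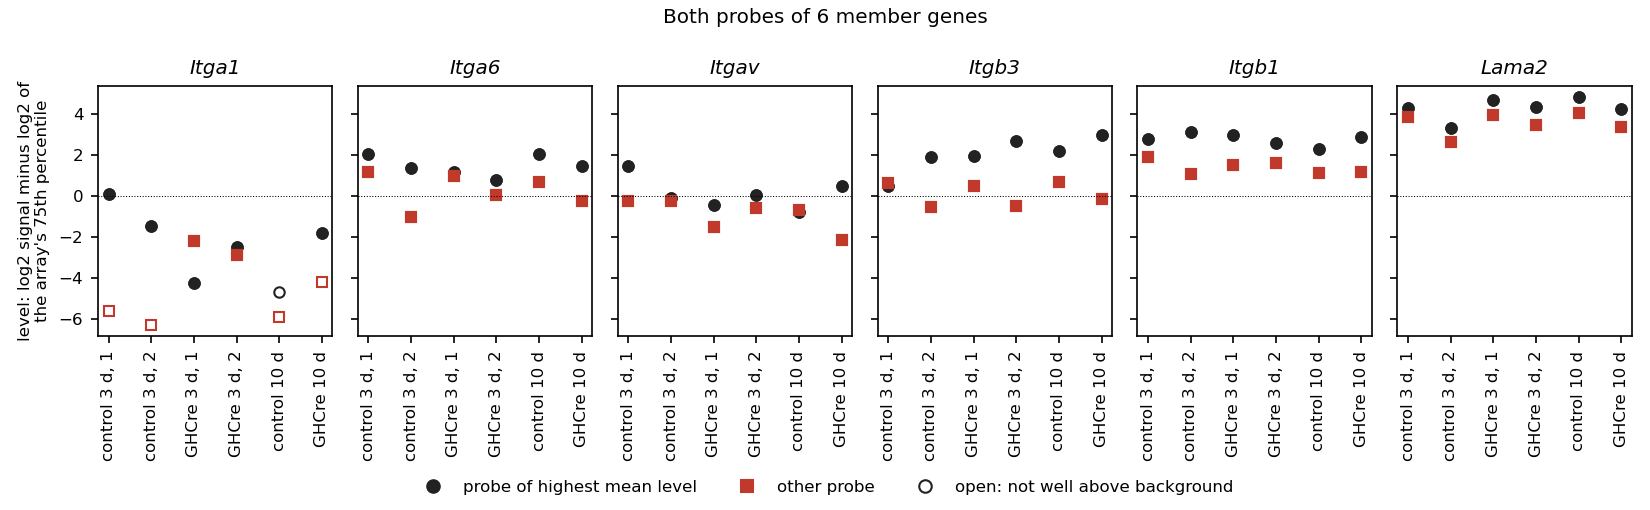
Level of both probes of 6 genes on each array (y axis, log2 signal minus log2 of the array's 75th percentile). Circles are the probe of highest mean level, squares the other probe, and open symbols are not well above background. The probes of Itga1 move in opposite directions between the 3 day groups. Those of Lama2 move broadly in parallel, but the 3 day groups overlap on the other probe.

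Epithelial integrins were represented by 3 tested chains, of which 2 were higher and 1 lower in GHCre after 3 days (median 0.34, 0.83 within slide 1 and -0.15 within slide 3). After 10 days 1 was higher and 2 were lower (median -0.54). Itga6, the alpha chain of epithelial laminin receptors and a common surface marker of epithelial progenitors, stood at 2.03 and 1.36 in the 3 day controls, 1.18 and 0.78 in GHCre, 2.03 in the 10 day control and 1.49 in the 10 day GHCre array. On this probe both GHCre arrays of 3 days were below the controls, a difference of -0.71 ± 0.48 (adjusted p = 0.864), but the other probe overlapped and had a difference of 0.43. Itga3, another laminin receptor chain, lay between -2.81 and -1.39 with overlapping 3 day groups and differences of 0.34 ± 0.54 and 0.38 ± 0.76.

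Itgb4, the hemidesmosome chain that pairs only with Itga6, was not above background in the 3 day controls (-5.25 and -4.03) and was above it in GHCre (-3.11 and -2.78). After 10 days the order was the other way, with -1.51 in the control and -4.76, not above background, in GHCre. GHCre was at least 1.82-fold higher after 3 days (fitted difference 1.69 ± 0.59, adjusted p = 0.759 with limma). In the 10 day arrays it was at least 6.75-fold lower (-3.25 ± 0.84, adjusted p = 1.00). The difference between the effects, -4.94 ± 1.03, had the lowest unadjusted p of the members and an adjusted p of 1.00. In the controls Itgb4 was at least 4.92-fold higher after 10 than after 3 days. These 3 bounds hold for the main processing only. Over the alternative settings the smallest differences were 0.068 between genotypes after 3 days, -0.99 after 10 days and 0.86 for time in the controls.

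Epithelial markers did not share a direction in these comparisons. Of the 8 of 9 tested, 5 were higher in GHCre after 3 days (median 0.30) and 3 after 10 days (median -0.44), and their summed level was between 16.8 and 24.7 in the 3 day controls, between 9.69 and 18.03 in GHCre, 18.6 in the 10 day control and 19.5 in the 10 day GHCre array. Epcam, an epithelial adhesion protein, was at 1.48 to 3.70 on all 6 arrays, Krt19 was above background on none, and their part in the values of Itga6 and Itgb4 was not tested.

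Leukocyte integrins, chains that circulating and resident immune cells use to bind endothelium and complement, had 7 tested members with no shared direction. After 3 days 4 were higher and 3 lower in GHCre (median 0.18), and the same counts held after 10 days (median 0.22). The 3 day median was 1.15 within slide 1 and 0.11 within slide 3, and 1.51 without control replicate 2. Itgb2, the common beta chain of leukocyte integrins, was at -0.29 and 1.81 in the 3 day controls, 1.53 and 1.92 in GHCre, 2.88 in the 10 day control and 2.33 in the 10 day GHCre array. Its lowest level was on control replicate 1 of 3 days, and without that array the difference of 0.97 ± 0.85 became -0.082.

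Itgam, the complement receptor chain of macrophages and neutrophils, had levels of 7.59 and 7.32 in the 3 day controls, 7.00 and 7.03 in GHCre, 7.38 in the 10 day control and 7.19 in the 10 day GHCre array. Both GHCre arrays of 3 days were below both controls, a difference of -0.44 ± 0.41 (adjusted p = 0.881). This probe holds a run of 20 bases of alternating C and A, and runs of that length or longer of any pair of bases occur in 0.223% of all probes. The other Itgam probes ranged from -2.92 to -0.05 and from -2.06 to 2.59 with overlapping 3 day groups, and what share of the bright probe's signal comes from Itgam RNA was not tested.

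Itgal, the lymphocyte partner of Itgb2, spread from 0.48 to 3.03 in the 3 day controls and from 0.69 to 2.27 in GHCre, and stood at 0.90 and 1.12 after 10 days. Itgax, the chain of dendritic cells and some macrophages, was below background on control replicate 1 of 3 days (-5.37) and between -2.22 and -1.17 on the other 5 arrays, so its fitted difference of 2.24 ± 1.26 rests on that array. Within slide 1 the GHCre array was at least 5.13-fold higher, taking the dim control at that array's floor, and within slide 3 the difference was 0.34. Itga4, the VCAM1 receptor chain, overlapped after 3 days (0.76 and -0.56 against 0.07 and -0.93) and was at -1.48 and -0.22 after 10 days. In these 3 genes the replicates of 3 days differed by as much as the genotypes or more.

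Itgb7, the beta chain of gut-homing lymphocytes, was at 0.04 and 0.66 in the 3 day controls, 1.40 and 1.73 in GHCre, 1.32 in the 10 day control and 0.16 in the 10 day GHCre array. It had the lowest unadjusted p of this class after 3 days, with a difference of 1.22 ± 0.46 (adjusted p = 0.764 with limma), 1.36 within slide 1 and 1.07 within slide 3, and of -1.17 ± 0.66 after 10 days. Itgb2l, a relative of Itgb2, was above background on 2 of the 6 arrays, at -3.21 in a 3 day control and -3.82 in the 10 day GHCre array. Leukocyte markers were tested for 17 of 20 genes and 13 were higher in GHCre after 3 days (median 0.69) and 14 after 10 days (median 0.48). Their summed level was between 69.7 and 91.2 in the 3 day controls, between 90.7 and 94.8 in GHCre, 73.3 in the 10 day control and 101 in the 10 day GHCre array, with Ptprc, the pan-leukocyte marker, at -1.36 to -0.36 and Aif1 and Ms4a1 above background on no array. Their part in the leukocyte integrin values was not tested.

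**Figure D4:**
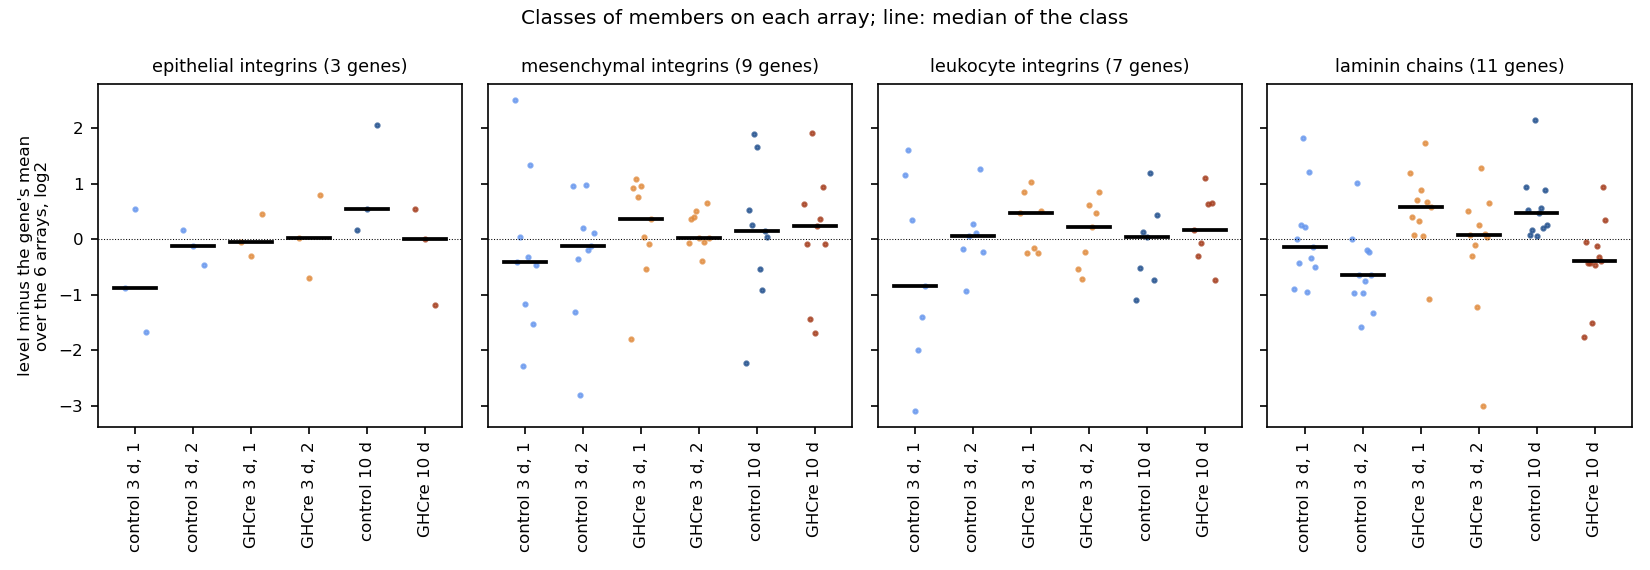
Level of each tested member minus its own mean over the 6 arrays (y axis, log2), for 3 classes of integrins and for the laminin chains, with 1 column per array. Dots are genes and black lines the median of the class on that array. The laminin median is 0.59 and 0.084 on the GHCre arrays of 3 days, -0.13 and -0.65 on the controls, 0.47 on the 10 day control and -0.40 on the 10 day GHCre array.

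Itgb1, the chain that most of the matrix receptors above share, was among the steadiest members, with levels of 2.76 and 3.11 in the 3 day controls, 2.96 and 2.61 in GHCre, 2.31 in the 10 day control and 2.87 in the 10 day GHCre array. Its differences were -0.15 ± 0.43 and 0.56 ± 0.61. Itgb8, an activator of latent TGF-beta with Itgav, was not above background in the 3 day controls (-5.85 and -4.57) and stood at -3.16 and -3.84 in GHCre, at least 1.32-fold higher (fitted difference 1.71 ± 0.65, adjusted p = 0.763), and at -3.41 and -2.82 after 10 days. Over the alternative settings its 3 day difference ran from 0.13 to 2.35. Itga2b, the platelet chain, lay between -3.72 and -2.19 on all 6 arrays, and of 7 platelet markers 2 were tested, with Ppbp, Gp9 and Gp6 above background on no array.

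The opposite signs at the 2 times seen in the laminins occurred in some integrins too. In 9 of the 33 members both 3 day GHCre arrays were above both controls and the 10 day GHCre array was below its control, where 8.18% of all genes tested had this pattern. They were Lama1, Lama2, Lamb1, Lamb2 and Lamc1 and the integrins Itga5, Itga8, Itgb4 and Itgb7. Itgb4 was above background only on the 3 day GHCre arrays and the 10 day control, so it passed the filter through arrays that are high in this pattern. For Lama2 the 3 day groups overlapped on the other probe. With 1 array per genotype after 10 days, and those arrays on different slides, the 10 day side of the pattern has no replicate.

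Of the proteins that work with these receptors, the adhesion complex inside the cell had 24 of 25 genes tested, and 20 of them had a higher mean in GHCre after 3 days, with a median difference of 0.31, 0.34 within slide 1 and 0.35 within slide 3. Pxn, a scaffold of focal adhesions, was at -0.33 and -0.06 in the 3 day controls, 1.81 and 1.46 in GHCre, -0.09 in the 10 day control and 1.16 in the 10 day GHCre array, a 3 day difference of 1.83 ± 0.42 (adjusted p = 0.693 with limma) and a 10 day difference of 1.25 ± 0.60. Src, the kinase that signals from these complexes, was at -4.50 and -3.49 in the 3 day controls, the first not above background. It was at -1.38 and 0.74 in GHCre after 3 days (difference 3.67 ± 0.92) and at -2.23 and -2.56 after 10 days. After 10 days 13 of the 24 were higher, with a median of 0.16.

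Basement membrane partners and laminin receptors outside the integrins had 10 of 12 genes tested, 8 higher in GHCre after 3 days (median 0.32) and 3 after 10 days (median -0.38). Hspg2, the perlecan core protein, stood at 2.38 and 1.26 in the 3 day controls, 3.48 and 3.30 in GHCre, and 2.79 and 2.41 after 10 days, with a 3 day difference of 1.57 ± 0.56. Nid1, which links laminin to collagen, had differences of 0.43 ± 0.47 and -0.57 ± 0.67. Integrin ligands had 10 of 13 genes tested, 7 higher after 3 days (median 0.96) and 4 after 10 days (median -0.27). Vcam1, the endothelial ligand of Itga4 receptors, was at 1.32 and 1.42 in the 3 day controls, 3.02 and 2.47 in GHCre, and 2.00 and 1.47 after 10 days, a 3 day difference of 1.38 ± 0.44 (adjusted p = 0.745). Icam1, the ligand of Itgb2 receptors, had a difference of 1.28 ± 0.44 and Spp1, a ligand of Itgav and Itga9 receptors, one of 2.71 ± 0.97, and both were within 0.31 of 0 after 10 days. Spp1 was not above background on 1 control array of 3 days.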

How the data were processed

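The members and gene lists were chosen with earlier results of these data known, and no list or rule is independent of them. Per the file headers, the deposited scanner intensity is Agilent Feature Extraction 10.7.3.1 processed signal, background-subtracted and unscaled. The deposited series table, in log2 units, matched quantile normalized scanner signal on all arrays. Replicate spots were averaged as log2 values, and each array was scaled by its 75th percentile. limma 3.58.1 (R 4.3.3) fitted 4 group means over all 6 arrays (2 residual degrees of freedom, from the 3 day arrays, and prior degrees of freedom of 2.03), with Benjamini-Hochberg adjustment over 20935 genes or unnamed transcripts and a threshold of 0.05. The lone 10 day arrays are assumed to vary like those of 3 days. Precision is limited by the number of arrays. The fit was tested on simulated data.

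Named were the members, with values on every array for those of lowest p in each class and a fixed set, and up to 3 genes of each other list. The values of 1 member, counted in the lists, are not reported here. Positions are mm9. Whether probes lie in coding sequence or untranslated regions was not analysed here. Alternatives were the normalization, background correction, series table, filters, choice of probe, variance prior, replicate or slide block, and leaving out each 3 day array. Plots were made in Python 3.11.15 with matplotlib 3.10.9.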

Additional observations from a re-analysis of the deposited data

How the results depend on the processing

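Under the 15 alternative settings no member and no gene passed an adjusted p of 0.05 with limma, and the genes at an unadjusted p under 0.05 after 3 days numbered 784 to 2286, against 1375. Of 76 member results, 57 kept their sign in every setting run. The laminin medians kept their sign under every setting; their difference between the 10 and 3 day effects ran from -1.80 to -0.86 with 1 array of 3 days left out. With 1 array left out, the 3 day medians ran from -0.18 to 0.86 for epithelial, 0.29 to 0.73 for mesenchymal and 0.13 to 1.51 for leukocyte integrins, and the differences between the effects from -0.48 to 0.0092, -1.01 to -0.21 and -0.30 to 0.24. Requiring signal on all 6 arrays gave epithelial medians of -0.19 after 3 days and -0.083 after 10 days, and mesenchymal ones of 0.63 and 0.32. With normexp the mesenchymal 3 day median was 0.25, and 0.37 with quantile normalization as well, Itga3 was at -0.030 and Itgb2l at -0.26. The mean of all probes gave 0.53 for the mesenchymal 3 day median, -0.60 for the epithelial difference between the effects, 0.36 for Itga1 after 3 days, and 0.015 for Itgam and -0.11 for Itgav after 10 days. With each probe on its own, the epithelial and mesenchymal differences between the effects were -0.66 and -0.74 and the leukocyte 3 day median -0.36. Without a filter the mesenchymal and leukocyte differences between the effects were -1.30 and -0.76. Other probes reversed Itga1 (3.39 after 3 days, -1.68 for the difference between the effects, 0.036 for time in controls), Itga6 (0.43), Itgb1 (0.075) and Itgb3 (-0.052) after 3 days, and Itgam (0.16 and 0.080), Itgav (-1.50) and Itgb3 (-0.79) after 10 days. The other Itga1 probe was above background only on the 3 day GHCre arrays. Its value for time in controls therefore compares only arrays below background, and its -1.68 rests on 10 day values below background. Leaving out 1 array of 3 days changed the sign of 11 members, with ranges of -1.15 to 0.15 for Itga11, -0.85 to 0.19 for Itga2b, -0.18 to 0.86 for Itga3, -1.20 to 0.13 for Itga4, -1.55 to 1.00 for Itgal, -0.33 to 0.022 for Itgb1, -0.082 to 2.02 for Itgb2, -1.15 to 1.51 for Itgb2l, -1.12 to 0.32 for Lama3, -2.28 to 1.14 for Lama5 and -3.51 to 1.23 for Lamb3. The cause of these changes was not tested.

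The labels pair same-numbered samples by nothing but the number, and same-numbered arrays of 3 days also shared a slide (correlation of their deviations 0.088). With the replicate number as a block, which for 3 days equals the slide block, the 3 day laminin median was 0.68 and no gene passed. With a slide block no 10 day comparison of genotypes could be fitted. Signal near background limits Itga1, Itga9, Itga10, Itgax, Itgb2l, Itgb4, Itgb8, Lama5 and Lamb3. For these genes only folds written as at least are bounds, and they hold for the main processing alone. Over the alternative settings some differences were smaller than these bounds, such as -0.99 for Itgb4 and -1.07 for Itga10 after 10 days.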
